A study of Mus musculus with 12 samples.

Results

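The Wnt ligands, their receptors and co-receptors, the secreted Wnt antagonists and the feedback gene Axin2 were followed in GFP-positive cells sorted from the cerebellum of Aldh1l1-GFP mice at postnatal day 1 (P1), P7, P14 and P28. Members were chosen by symbol alone, as rows named Wnt, Fzd, Sfrp or Dkk with a number, together with Lrp5, Lrp6, Axin2, Wif1, Ror1, Ror2 and Ryk. This gave 44 genes of the 24421 in the table. They comprised 19 Wnt ligands, 10 Frizzled receptors, 2 co-receptors, 3 other receptors, 9 secreted antagonists and Axin2. RNA was sequenced in 12 libraries, 3 at each age, which the paper describes as made from total RNA. All were of the same Aldh1l1-GFP genotype, from C57/BL6J mice of both sexes, so that the groups differ in age alone as far as the labels say. In the table every column name carries the text P28, also for the other ages, and the ages rest on the labels, which name the column of each sample. The reporter follows the regulatory region of Aldh1l1, a folate enzyme gene used as a marker of astrocytes throughout the brain, and cells of another type that carry GFP would be sorted with them. Nothing in the labels says that the libraries came from separate animals, so that the p-values measure the spread between these libraries, which may be partly technical.

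Wnt proteins are secreted lipid-modified ligands that bind Frizzled receptors together with Lrp5 or Lrp6, which stabilises beta-catenin and switches on target genes through TCF and LEF factors. Other receptors, among them Ror1, Ror2 and Ryk, carry Wnt signals that do not need beta-catenin and that orient cells and axons. Secreted antagonists act outside the cell: Sfrp proteins and Wif1 bind Wnts, whereas Dkk1, Dkk2 and Dkk4 bind the co-receptors. In the cerebellum, Wnt signals are known for patterning the midbrain-hindbrain region in the embryo and for shaping synapses and vessels after birth.

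The sorted libraries carried 6399499 to 14733985 reads on genes. Aldh1l1 was read in all 12 libraries, at normalized counts from 936 to 6441, and all 10 astrocyte markers were present, with summed counts between 59407 and 74423 at P1, 29292 and 53547 at P7, 154959 and 191092 at P14, and 358112 and 419126 at P28. The libraries also carried transcripts that mark other cells. The 12 oligodendrocyte lineage markers summed to 8702 to 13013 at P1 and 25281 to 36914 at P7, were highest at P14 (314146 to 373333) and lower again at P28 (103147 to 144564). The 10 proliferation markers summed to 9663 to 16665, 21682 to 27656, 1373 to 2024 and 707 to 941 at these ages. The 10 fibroblast and meningeal markers, of which Igf2 and Col1a1 were the most abundant, summed to between 20706 and 78259 at P1, 21012 and 35629 at P7, 20702 and 28213 at P14, and 12730 and 14092 at P28, with 7 of the 10 lower at P28 than at P1. The 10 choroid plexus markers summed to 1260 to 2878 at P1 and 48855 to 129365 at P7. They spread widely later, from 1364 to 111089 at P14 and from 18181 to 184821 at P28, were lowest in replicate 3 at both of these ages, and were led by Ttr from P7 on. The 10 granule neuron precursor markers, led by Zic1, summed to 5914 to 7259, 13415 to 14244, 7539 to 9122 and 8123 to 8777 at the 4 ages, with 2 higher and 4 lower at P28 than at P1, and Atoh1 among them was at 0 in every P14 and P28 library. The 9 granule neuron markers summed to 527 to 744, 3090 to 6062, 14835 to 28163 and 9457 to 10687 at the 4 ages, with Gabra6 at 0 in every P1 library. The 8 markers of the GABAergic interneuron lineage summed to 979 to 4228, 4589 to 10366, 564 to 751 and 652 to 1116. In sorted bulk RNA, fewer cells of a type and less RNA per cell cannot be told apart, and the part of these marker changes in the Wnt results below was not tested.

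All 10 Frizzled genes, the 2 co-receptors, the 3 other receptors, Axin2, 11 of 19 ligands and 7 of 9 antagonists passed the filter for testing, 10 or more normalized counts in 3 or more libraries. The normalized count is the read count divided by a size factor of the library. The 34 genes that passed are not all members, and a gene can pass through the age at which it is high. The other 10 genes had few reads. Wnt3a had no read in any library, Wnt2 had 2 reads in all, Dkk1 had 4, Wnt8a had 16, Dkk4 had 17, Wnt1 had 18, Wnt10b had 20, Wnt10a had 31, Wnt16 had 45 and Wnt11 had 116. Their highest normalized count in any library was 24.3, for Wnt11 in P1 replicate 2. A count of 0 in a library allows a normalized count of up to 1.85 to 4.38 at these depths, which is the value of 3 reads and covers counting error only.

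**Figure D1:**
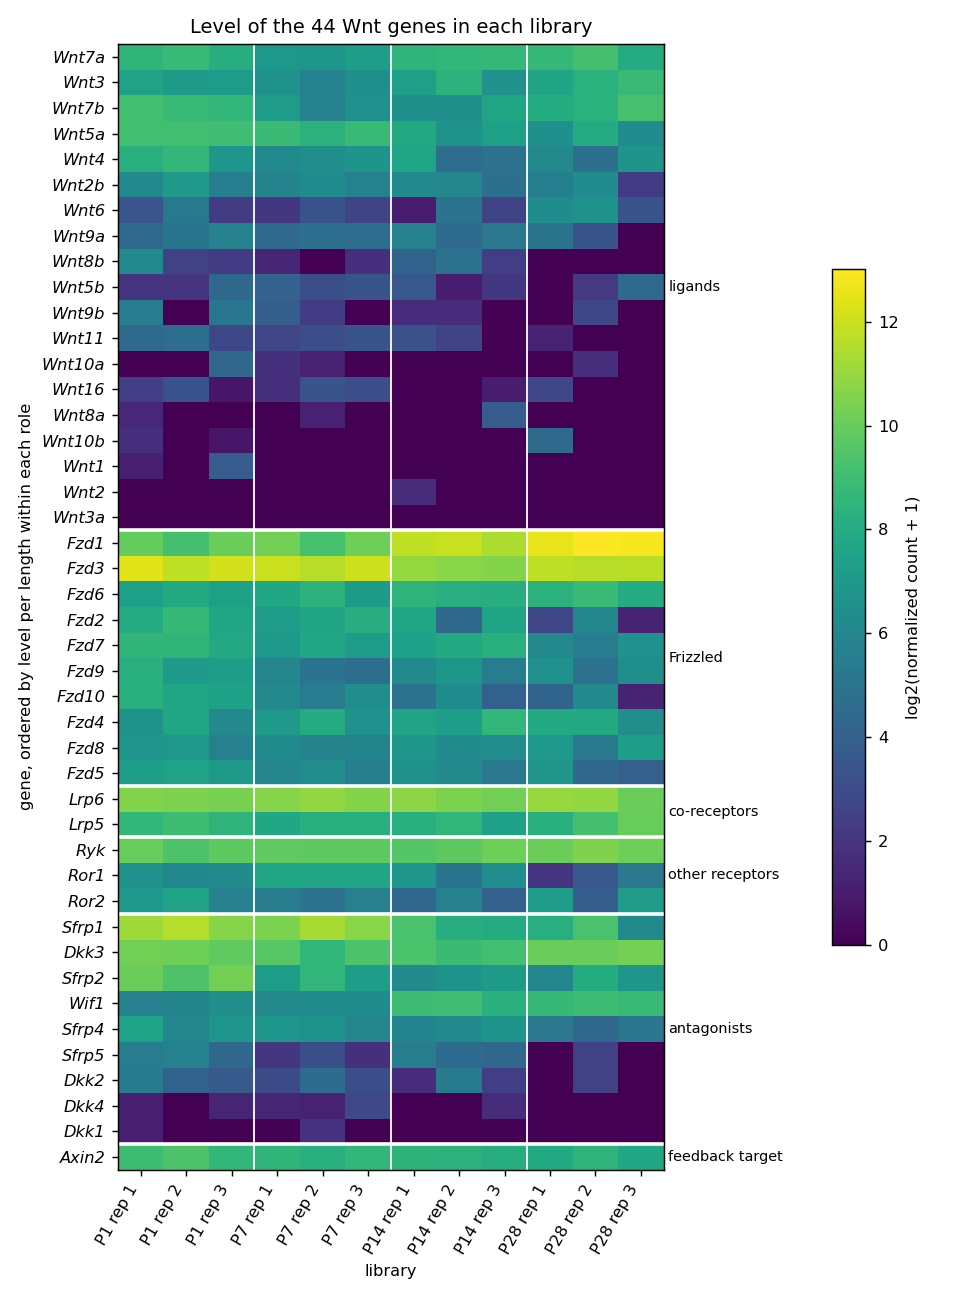
Normalized counts of the 44 Wnt genes, as log2(normalized count + 1), with genes in rows, ordered by role and by level per exon length, and the 12 libraries in columns. The Fzd1 and Wif1 rows are brighter in the P28 than in the P1 columns, the Sfrp1 and Sfrp2 rows are darker, and the lower rows of the ligand block are at or near 0 in most libraries.

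Between P1 and P28 the Frizzled receptor Fzd1 and the antagonist Wif1 rose, and 13 of the 34 tested genes fell, among them the antagonists Sfrp1, Sfrp2, Sfrp4, Sfrp5 and Dkk2, the Frizzled genes Fzd2, Fzd5, Fzd7 and Fzd10, the receptor Ror1, the ligands Wnt5a and Wnt8b, and Axin2. Together 15 of the 34 (44.1%) passed an adjusted p of 0.05 in limma with Benjamini-Hochberg adjustment over all genes tested, against 34.6% of the 15464 genes tested. Rising genes were 2 of 34, against 14.6% of all genes, and falling genes 13 of 34, against 20.0%. The median log2 fold change was -1.22 over the 34 genes and -0.24 over all genes tested. The libraries of P1 and P28 did not overlap for 21 of the 34, of which 16 were lower at P28, against 41.9% of all genes.

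The changes were spread over the 3 intervals. From P1 to P7, 5 of the 34 (14.7%) passed, against 7.70% of all genes, and all 5 fell: Wnt7a, Wnt7b, Fzd9, Sfrp2 and Dkk3. Among all genes 3.47% rose and 4.24% fell. None of the 34 rose in limma, and the 8 genes with an unadjusted p under 0.05 all fell; edgeR called 0 higher and 4 lower, and DESeq2 0 higher and 6 lower. The median log2 fold change of the 34 in this interval was -0.59, against 0.037 over all genes tested, and 15 were lower and 2 higher in every P7 library than in every P1 library, against 38.3% of all genes not overlapping. The number called fell from 5 to 2 without P1 replicate 1, 2 or 3 or P7 replicate 2 or 3, and to 3 without P14 replicate 1. In this interval 3 of 10 choroid plexus, 6 of 9 granule neuron and 3 of 10 granule neuron precursor markers rose. Of 12 oligodendrocyte lineage markers 7 rose and 2 fell, and of 7 tested Purkinje cell markers 3 rose and 1 fell. Of 10 astrocyte markers 6 fell and 2 rose, and of 7 tested Bergmann glia markers 2 fell and 2 rose. Aldh1l1 lay between 3841 and 6441 at P1 and between 936 and 1985 at P7. The part of these changes in the Wnt result was not tested.

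From P7 to P14, 6 of the 34 (17.6%) passed, against 20.9% of all genes. Fzd1, Wif1 and Wnt7a rose, and Fzd3, Sfrp1 and Wnt5a fell, 3 in each direction, against 10.8% of all genes rising and 10.0% falling. The median log2 fold change was -0.048, against -0.086 over all genes tested, and 10 of the 34 did not overlap between these ages, against 46.1% of all genes. From P14 to P28, 8 of the 34 (23.5%) passed, against 14.4%: Fzd1, Fzd3, Dkk3 and Wnt7b rose, and Fzd7, Ror1, Sfrp5 and Wnt8b fell, 4 in each direction, against 5.68% of all genes rising and 8.76% falling. The median log2 fold change was -0.10, against -0.12 over all genes tested, and 8 of the 34 did not overlap, against 26.1%. This number of calls fell from 8 to 5 without P14 replicate 1 or without P14 replicate 3. A limma F test over the 4 ages passed for 18 of the 34 (52.9%), against 43.8% of all genes.

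**Figure D2:**
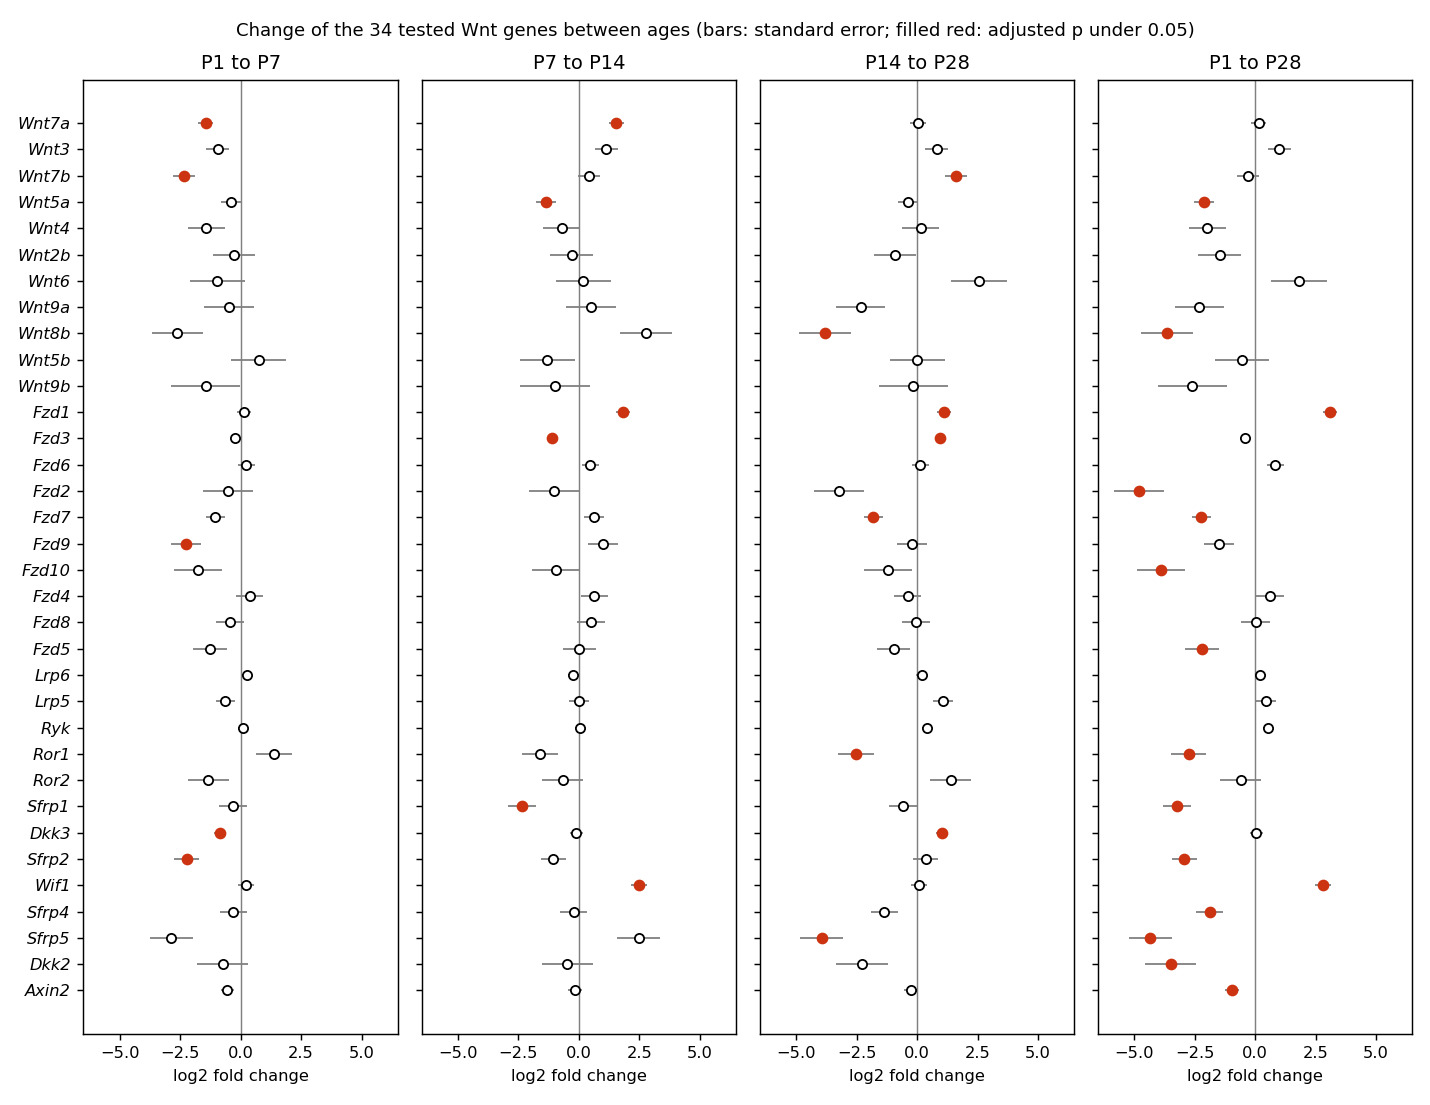
Log2 fold change between ages for the 34 tested Wnt genes, in 4 panels, with bars for the standard error and filled red points for an adjusted p under 0.05. In the P1 to P28 panel 2 points are filled to the right of 0 and 13 to the left; the values of Wnt8b against P28, where every library had no read, depend on the pseudocount and are not bounds.

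TCF and LEF factors bind a short DNA word, which was looked for upstream of the members' starts. RefSeq start regions (GRCm38.p6) were matched for 30 of the 44 genes. The word AACAAAG, which spells the core of that site, and its forms opening with AT, with TA or with TT in place of AA were searched on both strands in the 250 bases before the start. A word was present for 4 of the 30 genes (13.3%), which were Dkk1, Fzd7, Wnt11 and Wnt5b, and in 14.8% of all 32851 start regions. The first share is per gene, over any of its regions (33 for the 30 genes), and the second is per region. The 4 regions printed here were picked because they belong to the rising genes Fzd1 (chr5:4758217-4758466, minus strand) and Wif1 (chr10:121033754-121033959, plus strand) and the falling genes Sfrp2 (chr3:83766071-83766320, plus strand) and Fzd7 (chr1:59481897-59482146, plus strand). They are written 5′ to 3′ on the strand of the gene and end before its RefSeq start, or before its GENCODE start where that comes first. Capitals mark the word, AACAAAG in Fzd7, whose first base lies at position -130 from the RefSeq start.
Fzd1: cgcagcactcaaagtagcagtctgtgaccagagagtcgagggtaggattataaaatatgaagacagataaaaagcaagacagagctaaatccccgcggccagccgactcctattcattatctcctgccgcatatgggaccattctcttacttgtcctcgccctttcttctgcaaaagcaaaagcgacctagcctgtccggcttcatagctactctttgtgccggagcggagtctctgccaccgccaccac
Wif1: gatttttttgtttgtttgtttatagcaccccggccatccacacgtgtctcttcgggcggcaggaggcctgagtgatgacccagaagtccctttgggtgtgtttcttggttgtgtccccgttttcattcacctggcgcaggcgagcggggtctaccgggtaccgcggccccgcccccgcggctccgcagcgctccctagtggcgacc
Sfrp2: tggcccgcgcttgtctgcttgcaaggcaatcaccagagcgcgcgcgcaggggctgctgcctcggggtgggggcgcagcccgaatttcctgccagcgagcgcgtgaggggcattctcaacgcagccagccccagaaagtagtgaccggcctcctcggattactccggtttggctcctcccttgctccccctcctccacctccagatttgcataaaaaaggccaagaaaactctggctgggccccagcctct
Fzd7: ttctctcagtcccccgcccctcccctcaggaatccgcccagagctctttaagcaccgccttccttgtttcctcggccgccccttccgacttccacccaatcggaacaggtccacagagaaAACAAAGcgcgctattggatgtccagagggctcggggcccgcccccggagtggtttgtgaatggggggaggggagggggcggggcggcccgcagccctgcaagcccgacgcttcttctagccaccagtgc

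A match is a description of letters, and windows without a word say nothing of sites elsewhere. The genes themselves lie at chr5:4753839-4758035 (Fzd1, a single exon), chr10:121033960-121100650 (Wif1), chr3:83766321-83774316 (Sfrp2) and chr1:59482424-59486955 (Fzd7, a single exon) in GENCODE M21. The Wif1 window holds 206 bases, since it stops at the GENCODE start, which lies before the RefSeq start. For Fzd1 and Fzd7 the RefSeq start lies before the GENCODE start, so that these windows stop short of the gene coordinates given here. GC content was 51.2% in the Fzd1 window, 61.7% in that of Wif1, 63.6% in that of Sfrp2 and 65.2% in that of Fzd7.

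Among the ligands, Wnt7a, Wnt3, Wnt7b, Wnt5a and Wnt4 had the highest levels per exon length, with means over the 12 libraries of 10.1, 5.84, 5.49, 4.30 and 3.18 RPKM, the reads per kilobase of exon scaled to the reads on genes of a library. RPKM rest on library totals, which set P14 and P28 lower than the normalized counts do. With that scaling the all-gene median log2 fold change between P1 and P28 was -0.66, against -0.24 with the normalized counts. The RPKM of all families given here and below carry this shift between ages. The summed ligand level lay between 42.3 and 55.6 RPKM at P1, 20.2 and 24.2 at P7, 25.1 and 30.4 at P14, and 29.2 and 38.0 at P28. Wnt5a was the ligand with the largest share at P7, at 26.7% ± 1.67 (SD, n = 3) of the sum, whereas Wnt7a led in all P14 libraries, with 41.9% ± 7.22. At P28 Wnt7a led in 2 libraries and Wnt3 in replicate 3.

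Wnt7a and Wnt7b are close relatives that drive vessel growth and barrier formation in the brain, and Wnt7a is also known as a signal from granule neurons to mossy fibre terminals. Wnt7a gave normalized counts of 363, 454 and 279 at P1, 121, 116 and 157 at P7, 353, 396 and 410.5 at P14 and 412, 578 and 259.6 at P28, in the order of replicates 1 to 3, which is kept throughout. All 3 P7 libraries lay below every library of the other ages. Its mean dropped from 366 ± 87.5 to 132 ± 22.4 (± gives the SD of 3 libraries after a mean, and the standard error after a log2 fold change), a log2 fold change of -1.45 ± 0.32 (adjusted p = 0.0110). It then rose by 1.56 ± 0.32 to P14 (adjusted p = 0.00279) and changed by 0.037 ± 0.32 to P28 (adjusted p = 0.957). The fall to P7 lost its call without P1 replicate 2 (0.0639) or P7 replicate 2 (0.0526), where the number in parentheses is the adjusted p; the rise to P14 kept its call with every library left out. In the interval of that rise markers of several cell types rose: 8 of 9 of granule neurons, 8 of 10 of astrocytes, 9 of 12 of the oligodendrocyte lineage and 6 of 7 tested of Bergmann glia. Their part in the Wnt7a result was not tested.

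Wnt7b fell in the same interval and rose later, after P14. Its normalized counts were 564, 435 and 393 at P1, 143, 53.7 and 94.6 at P7, 92.1, 93.1 and 201 at P14 and 265, 314 and 606 at P28. The P7 and P14 libraries overlapped each other and lay below all P1 and P28 libraries. The log2 fold change was -2.34 ± 0.45 between P1 and P7 (adjusted p = 0.00468), 0.41 ± 0.45 between P7 and P14 (adjusted p = 0.586) and 1.61 ± 0.45 between P14 and P28 (adjusted p = 0.0272). The late rise lost its call without P14 replicate 1 (0.0935), P14 replicate 2 (0.0881) or P28 replicate 3 (0.0769), and in a fit of the P14 and P28 libraries alone (0.117). Between P1 and P28 neither gene passed, with log2 fold changes of 0.14 ± 0.32 for Wnt7a and -0.31 ± 0.45 for Wnt7b. The annotation places AU022754 on the opposite strand within Wnt7b, and since the strand setting of the counting was not given in the sources used here, reads of this pair cannot be told apart.

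Wnt5a, the best known ligand of the beta-catenin-independent branch, fell in the second week. It gave 534, 540.1 and 516 at P1, 467, 332 and 432 at P7, 237, 98.4 and 166 at P14 and 90.6, 255 and 77.1 at P28. Every P14 and P28 library lay below every P1 and P7 library. The change on the log2 scale was -1.36 ± 0.43 between P7 and P14 (adjusted p = 0.0347) and -2.12 ± 0.43 between P1 and P28 (adjusted p = 0.00168). The call from P7 to P14 was lost in edgeR (0.0524) and without P1 replicate 1 (0.0514), P1 replicate 3 (0.0501), P7 replicate 1 (0.123), P7 replicate 2 (0.0566), P7 replicate 3 (0.108), P14 replicate 2 (0.151) or P14 replicate 3 (0.0726), whereas the net fall was called with every library left out. Gm2670 overlaps Wnt5a on the opposite strand.

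Wnt8b, a ligand known from the embryonic forebrain, was read at the 3 earlier ages and in no library at P28. Its normalized counts were 68.9, 5.0 and 3.79 at P1, 1.59, 0 and 2.33 at P7, 16.9, 27.5 and 4.34 at P14 and 0 in all 3 libraries at P28. P1 replicate 1 lay far above the other P1 libraries, and the P7 libraries were at or near the floor. Against the value of 3 reads in each P28 library, the mean at P28 was at least 4.07-fold lower than at P14 (adjusted p = 0.0287) and at least 6.49-fold lower than at P1 (adjusted p = 0.0161), where the P1 mean rests on replicate 1. The call against P14 was lost without P14 replicate 1 (0.0794), P14 replicate 2 (0.0923) or P28 replicate 3 (0.0524) and with a pseudocount of 10 (0.146), and that against P1 without P1 replicate 1 (0.0870) and with a pseudocount of 10 (0.0791). Leaving out P14 replicate 3 moved the fitted log2 fold change, which depends on the pseudocount, from P14 to -4.50, and leaving out P1 replicate 1 or 3 moved that from P1 to -2.42 or -4.36.

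The other tested ligands did not pass in any pairwise comparison. Wnt3, which Purkinje cells are known to make, differed over the 4 ages in the F test (adjusted p = 0.0262), with the lowest mean at P7, 80.3 ± 23.8, and the highest at P28, 323 ± 130.1. This call was lost without P7 replicate 2 (0.0961), P7 replicate 3 (0.0579) or P28 replicate 3 (0.0600), and with scaling by library totals (0.0863). Wnt4 went from 265 ± 143 at P1 to 67.5 ± 39.9 at P28 (log2 fold change -1.98 ± 0.77, adjusted p = 0.0591). Wnt2b, Wnt5b, Wnt6, Wnt9a and Wnt9b had maxima of 125, 21.6, 99.1, 54.5 and 43.1 normalized counts in any library. Several ligand genes are neighbours in the genome (GRCm38, GENCODE M21), and in 3 such pairs the means of the neighbours over the 12 libraries lay far apart. Wnt3 at chr11:103774150-103817957 averaged 5.84 RPKM and Wnt9b at chr11:103727364-103749821 0.216. Wnt6 at chr1:74771892-74785322 averaged 1.03 RPKM and Wnt10a at chr1:74791516-74804179 0.0947. In P1 replicate 3, however, Wnt10a was above Wnt6, at 0.882 against 0.199 RPKM. Wnt9a at chr11:59306928-59333552 averaged 0.856 RPKM, beside Wnt3a at chr11:59248033-59290752 with no read. In the fourth pair Wnt1 at chr15:98789857-98793837 and Wnt10b at chr15:98770712-98778150 had similar means, 0.0536 and 0.0549 RPKM, both from few reads and from different ages. Of the 18 Wnt1 reads 16 were in P1 replicate 3, and of the 20 Wnt10b reads 15 were in P28 replicate 1.

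The Frizzled gene with the highest level differed between the early and the late ages. Fzd3 held the largest share of the summed Frizzled level in all P1 and P7 libraries, with 36.2% ± 3.43 and 39.3% ± 1.28, and Fzd1 in all P14 and P28 libraries, with 66.5% ± 5.05 and 79.4% ± 3.46 (SD, n = 3). The sum of the 10 genes lay between 93.1 and 122.8 RPKM at P1, 77.0 and 91.9 at P7, 101.5 and 125.1 at P14, and 166.3 and 199.5 at P28. Over all ages pooled Fzd1 had the highest level per exon length of the 44 genes, with a mean of 67.9 RPKM over the 12 libraries, ahead of Sfrp1 at 30.7, Fzd3 at 26.9, Dkk3 at 25.2, Ryk at 21.5 and Sfrp2 at 18.6. The ranges of these 6 genes over the 12 libraries overlapped, and the order depended on age. At P1 Fzd1, with 23.5 ± 7.69 RPKM, was below Sfrp1 at 58.7 ± 17.1, Sfrp2 at 52.0 ± 17.3, Fzd3 at 39.0 ± 8.48 and Dkk3 at 36.0 ± 4.26. At P7, with 27.0 ± 8.46, it was below Sfrp1 at 49.5 ± 16.4 and Fzd3 at 34.02 ± 4.07. It had the highest mean of the 44 at P14, 78.1 ± 13.98, and at P28, 143 ± 18.8.

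**Figure D3:**
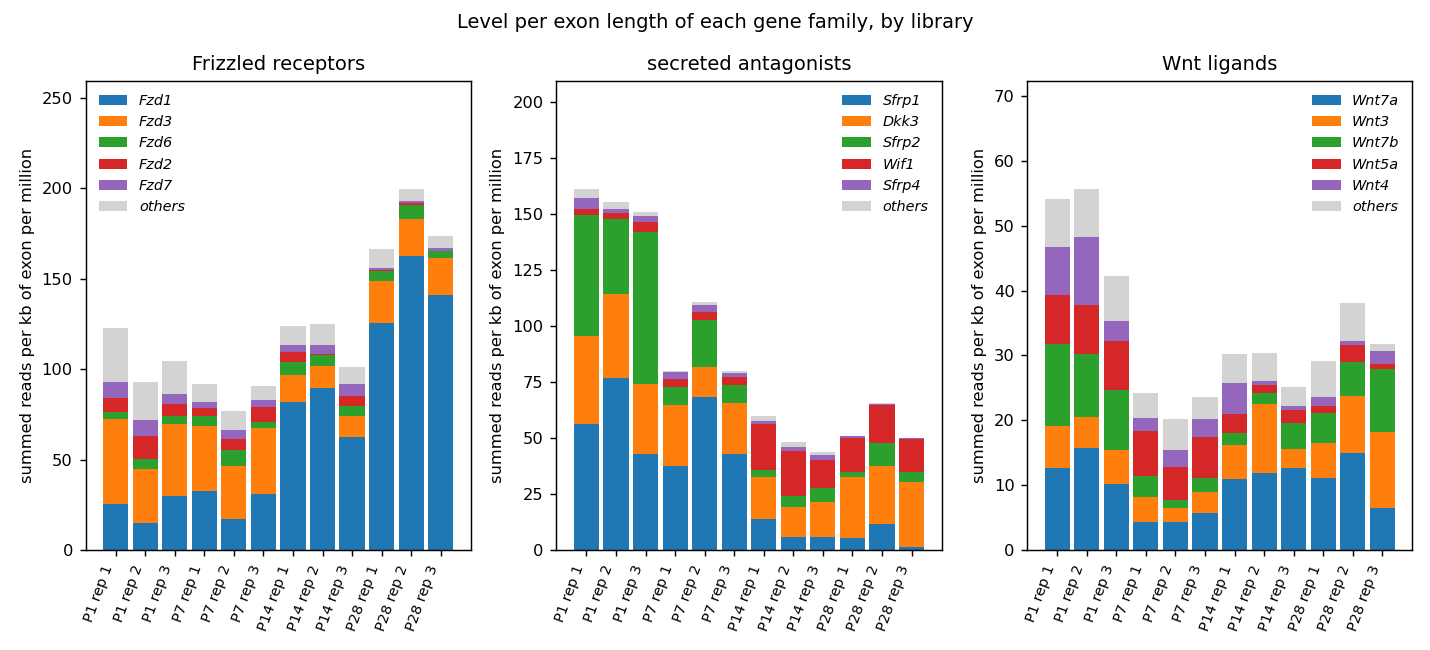
Summed level of the Frizzled receptors, the secreted antagonists and the Wnt ligands in each of the 12 libraries, in RPKM, with the 5 highest genes of each family in colour and the others in grey. The blue Fzd1 segment makes up 61.7% to 71.8% of the Frizzled bar at P14 and 75.4% to 81.6% at P28, and the antagonist bars are tallest at P1.

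Fzd1, a receptor that signals through beta-catenin and whose start region held none of the TCF and LEF words, rose in both later intervals. Its normalized counts were 973, 576 and 1094 at P1, 1197, 609 and 1134 at P7, 3480.0, 3931 and 2703 at P14 and 6126, 8276 and 7465 at P28. The P1 and P7 libraries overlapped, every P14 library lay above them, and every P28 library lay above every P14 library. In limma the log2 fold change was 0.14 ± 0.28 between P1 and P7 (adjusted p = 0.887), 1.83 ± 0.28 between P7 and P14 (adjusted p = 0.000299) and 1.12 ± 0.28 between P14 and P28 (adjusted p = 0.0167). Between P1 and P28 the level rose 8.51-fold (log2 fold change 3.09 ± 0.28, adjusted p = 1.56e-06). The rise from P14 to P28 lost its call without P14 replicate 3 (0.0762); the others held with every library left out. From P7 to P14 markers of several cell types rose: 8 of 10 of astrocytes, 6 of 7 tested of Bergmann glia, 8 of 9 of granule neurons and 9 of 12 of the oligodendrocyte lineage. From P14 to P28, 8 of 10 of astrocytes and 6 of 7 tested of Bergmann glia rose. In that interval 2 of 9 of granule neurons and 8 of 12 of the oligodendrocyte lineage fell. Their part in the Fzd1 result was not tested.

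Fzd3, a receptor needed for axon guidance and tissue polarity, moved the other way in the second week and then rose again. It gave 5447, 3514 and 4446 at P1, 3984, 3148 and 4136 at P7, 1962, 1635 and 1551 at P14 and 3482, 3159.8 and 3306 at P28. The 3 P14 libraries lay below all others, and every P28 library lay below every P1 library. On the log2 scale the change was -1.13 ± 0.18 between P7 and P14 (adjusted p = 0.000379) and 0.96 ± 0.18 between P14 and P28 (adjusted p = 0.00362), and both calls held with every library left out. The net change from P1 was -0.41 ± 0.18 (adjusted p = 0.0863), which passed with scaling by library totals (-0.84, adjusted p = 0.00183) and without P1 replicate 2 (-0.57, adjusted p = 0.0251). Gm27263 and Gm9086 overlap Fzd3 in the annotation, the first of them on the same strand.

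Fzd2 and Fzd7, which belong to the same subfamily as Fzd1, and Fzd10 fell between P1 and P28. Fzd7 gave 359.9, 366 and 229 at P1, 122, 200.2 and 139.5 at P7, 174, 238 and 307 at P14 and 68.7, 43.6 and 94.7 at P28. Its P28 libraries lay below all others, and the fall from P14 was -1.81 ± 0.40 (adjusted p = 0.00917), although a fit of the P14 and P28 libraries alone did not call it (0.10). Fzd2 gave 257, 416 and 211 at P1, 141, 189.8 and 273 at P7, 207, 20.1 and 193 at P14 and 5.85, 61.3 and 1.35 at P28. P14 replicate 2 stood apart from the other P14 libraries, and the P28 libraries lay below all of P1 and P7. The net log2 fold change of Fzd2 was -4.82 ± 1.04 (adjusted p = 0.00257), and it was -6.14 without P28 replicate 2 and -3.78 without P28 replicate 3.

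Fzd10 gave 308, 203 and 173 at P1, 67.7, 44.5 and 86.0 at P7, 28.6, 80.4 and 15.2 at P14 and 17.5, 74.3 and 1.35 at P28. Its P1 libraries lay above all others, and the later ages overlapped. The net log2 fold change was -3.90 ± 0.99 (adjusted p = 0.00764), which was -5.07 without P28 replicate 2 and -2.57 without P28 replicate 3. Fzd9, of the subfamily that also holds Fzd4 and Fzd10, fell in the first week, from 282, 126 and 152 at P1 to 60.5, 30.1 and 24.8 at P7, a log2 fold change of -2.27 ± 0.62 (adjusted p = 0.0389). The P1 and P7 libraries of Fzd9 did not overlap, but its call was lost without P1 replicate 1 (0.192), P1 replicate 2 (0.0752), P1 replicate 3 (0.0810), P7 replicate 2 (0.136), P7 replicate 3 (0.159) or P14 replicate 1 (0.0542). At P14 and P28 it gave 72.0, 118 and 44.5 and 93.5, 28.3 and 89.3.

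Fzd5 fell between P1 and P28 by a log2 fold change of -2.21 ± 0.70 (adjusted p = 0.0241), from 150.1, 182 and 132 to 111, 20.1 and 14.9. P28 replicate 1 was close to the P1 libraries and the other P28 libraries were far below; without P28 replicate 1 the log2 fold change was -3.08. The call was lost in edgeR (0.0898), in a fit of the P1 and P28 libraries alone (0.0856) and without P1 replicate 1 (0.0672), P1 replicate 2 (0.0749), P1 replicate 3 (0.0542), P28 replicate 2 (0.0616) or P28 replicate 3 (0.0703). Fzd4, Fzd6 and Fzd8 passed in no comparison. Fzd6, the closest relative of Fzd3, had a net log2 fold change of 0.83 ± 0.36 (adjusted p = 0.0845), and its libraries did not overlap between P1 and P28.

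**Figure D4:**
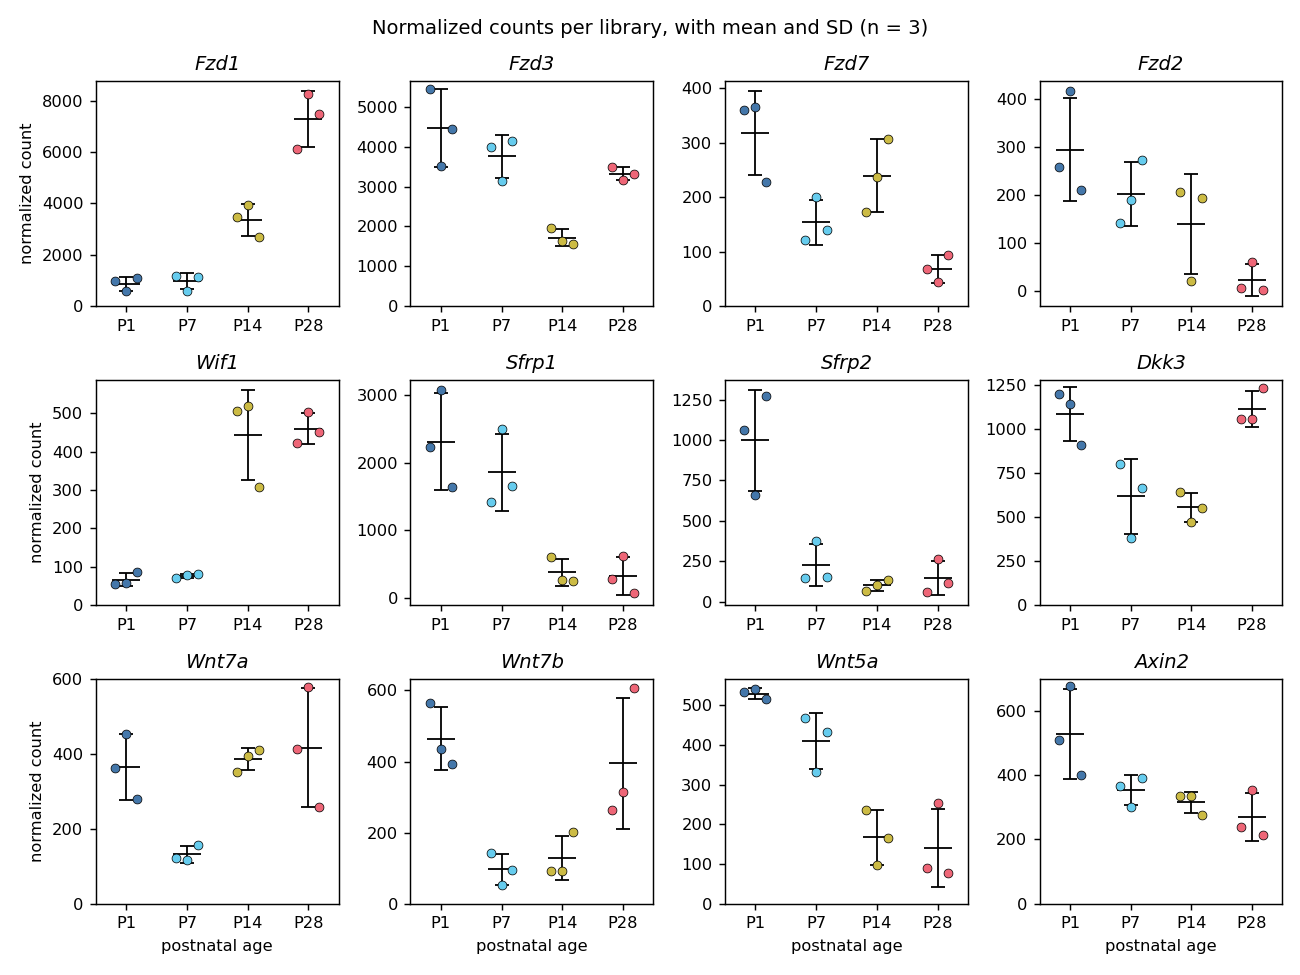
Normalized counts of 12 Wnt genes in each library (points), with the mean and SD of the 3 libraries of an age (bars). Fzd1 and Wif1 are high at P14 and P28, Fzd3 is lowest at P14, Wnt7a is lowest at P7, and Sfrp2 drops between P1 and P7.

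Neither the co-receptors Lrp5 and Lrp6, which Frizzled receptors need to stabilise beta-catenin, nor Ryk passed in any comparison of the main test. Lrp6 gave 1539, 1403 and 1311 at P1, 1618, 1889.9 and 1540.2 at P7, 1740.0, 1379 and 1195 at P14 and 2081, 1886 and 1085 at P28, with overlapping libraries except that all P7 values lay above all P1 values. Its net log2 fold change was 0.20 ± 0.23 (adjusted p = 0.534), which turned to -0.24 with scaling by library totals. Lrp5 gave 396, 494 and 351 at P1, 224, 287 and 288 at P7, 285, 377 and 173 at P14 and 291, 574 and 1030.5 at P28. P28 replicate 3 was the highest of the 12, and the net log2 fold change of 0.44 ± 0.40 (adjusted p = 0.416) was -0.0019 without it. Ryk, an atypical kinase-like Wnt receptor, gave 1001, 669 and 897 at P1, 903, 897 and 898 at P7, 776, 895 and 1109.9 at P14 and 1099, 1427 and 1119.7 at P28. Its P28 libraries lay above all P1 libraries, and the net log2 fold change of 0.52 ± 0.20 did not pass (adjusted p = 0.0612), whereas with TMM scaling, at 0.55, it passed just under the threshold.

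Ror1 and Ror2 are receptor tyrosine kinase relatives that respond to Wnt5a. Ror1 gave 97.8, 65.7 and 75.7 at P1, 209, 203 and 204 at P7, 112, 31.7 and 82.5 at P14 and 2.92, 10.6 and 35.2 at P28. It was highest in the P7 libraries, which lay within a few counts of each other and above all others. The log2 fold change was 1.37 ± 0.74 between P1 and P7 (adjusted p = 0.352), -1.61 ± 0.74 between P7 and P14 (adjusted p = 0.147), -2.52 ± 0.74 between P14 and P28 (adjusted p = 0.0346) and -2.75 ± 0.74 between P1 and P28 (adjusted p = 0.00999). The late fall lost its call in edgeR (0.0524), in a fit of P14 and P28 alone (0.240) and without P1 replicate 1 (0.0514), P7 replicate 1 (0.0566), P7 replicate 2 (0.0526), P7 replicate 3 (0.0561), P14 replicate 1 (0.124), P14 replicate 3 (0.105) or P28 replicate 1 (0.0716); its value was -1.72 without P28 replicate 1 and -3.33 without P28 replicate 3. The net fall held with every library left out, at -1.96 without P28 replicate 1 and -3.56 without P28 replicate 3, and was not called in a fit of P1 and P28 alone (0.0665). Ror2 gave 121, 183 and 50.0 at P1, 43.8, 30.1 and 50.4 at P7, 20.1, 50.8 and 15.2 at P14 and 145, 14.2 and 145 at P28. P28 replicate 2 was far below the other P28 libraries, and the net log2 fold change of -0.61 ± 0.86 (adjusted p = 0.611) was 0.48 without it.

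The summed level of the secreted antagonists was highest at P1, and different genes led at P1 and at P28. Their summed level lay between 151.0 and 161.2 RPKM at P1, 79.9 and 111.0 at P7, 43.8 and 60.1 at P14, and 50.1 and 65.7 at P28. Sfrp1 and Sfrp2 made up 37.6% ± 10.7 and 33.4% ± 11.7 of that sum at P1 (SD, n = 3), and Dkk3 and Wif1 made up 50.3% ± 9.62 and 28.3% ± 1.96 at P28. Dkk3 was counted with the antagonists by its symbol alone. Of the 7 tested antagonists, 5 fell and 1 rose between P1 and P28, against 20.0% of all genes falling and 14.6% rising, with a median log2 fold change of -2.94, against -0.24 over all genes tested. Of the 5, Sfrp5 and Dkk2 passed the filter only through libraries of earlier ages, with no P28 library at 10 or more normalized counts. The filter thus favoured a fall of these genes to P28. The fibroblast and meningeal markers fell over the same ages, 7 of 10, and so did all 10 proliferation markers.

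Sfrp2 fell in the first week. It gave 1059, 660.2 and 1274 at P1, 148, 377 and 153 at P7, 67.8, 103 and 134 at P14 and 62.8, 265 and 116 at P28. Every P1 library lay above every later library. The change on the log2 scale was -2.23 ± 0.51 between P1 and P7 (adjusted p = 0.0155) and -2.94 ± 0.51 between P1 and P28 (adjusted p = 0.000570). The early call was lost without P1 replicate 1 (0.0720), P1 replicate 3 (0.0657), P7 replicate 1 (0.0716) or P7 replicate 3 (0.0766); the net fall held with every library left out. Gm26771 overlaps Sfrp2 on the opposite strand.

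Sfrp1 fell a week later. It gave 2226, 3071 and 1635 at P1, 1416, 2497 and 1650.3 at P7, 614, 273 and 257 at P14 and 281, 620.4 and 74.4 at P28. The P1 and P7 libraries overlapped, and all lay above every P14 and P28 library. In limma the log2 fold change was -0.31 ± 0.57 between P1 and P7 (adjusted p = 0.878), -2.36 ± 0.57 between P7 and P14 (adjusted p = 0.00863) and -3.24 ± 0.57 between P1 and P28 (adjusted p = 0.000592). The net value was -3.94 without P28 replicate 2 and -2.42 without P28 replicate 3, with the call kept in both. From P7 to P14, the interval in which Sfrp1 fell, the 10 proliferation markers all fell, as did 6 of 7 tested markers of the GABAergic interneuron lineage.

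Sfrp5 and Sfrp4 were at lower levels. Sfrp5 gave 44.3, 52.2 and 18.9 at P1, 3.18, 7.85 and 2.33 at P7, 45.5, 22.2 and 18.5 at P14 and 0, 4.72 and 0 at P28. All P1 and P14 libraries lay above all P7 and P28 libraries. On the log2 scale the change was -2.87 ± 0.88 between P1 and P7 (adjusted p = 0.0658), 2.47 ± 0.88 between P7 and P14 (adjusted p = 0.0621), -3.95 ± 0.88 between P14 and P28 (adjusted p = 0.00996) and -4.34 ± 0.88 between P1 and P28 (adjusted p = 0.00176). Without P28 replicate 2, the only P28 library with reads, the last 2 values were -4.79 and -5.18, and a fit of P14 and P28 alone did not call the late fall (0.0665). Sfrp4 fell from 189, 62.2 and 108 at P1 to 35.1, 20.1 and 33.8 at P28, a log2 fold change of -1.88 ± 0.56 (adjusted p = 0.0181). Its call was lost without P1 replicate 1 (0.105) or P1 replicate 3 (0.0538) and in a fit of P1 and P28 alone (0.0867).

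Wif1, which binds Wnts through its own WIF domain, rose between P7 and P14. It gave 54.1, 58.6 and 87.1 at P1, 70.1, 78.5 and 79.8 at P7, 506, 518 and 308 at P14 and 424, 504 and 452 at P28. All P14 and P28 libraries lay above all P1 and P7 libraries, and within each pair the ages overlapped. The rise from P7 to P14 was 5.63-fold (log2 fold change 2.49 ± 0.34, adjusted p = 0.000115), that from P1 to P28 was 2.80 ± 0.34 on the log2 scale (adjusted p = 2.44e-05), and from P14 to P28 the log2 fold change was 0.084 ± 0.34 (adjusted p = 0.897). Both rises held in every alternative run and with every library left out. From P7 to P14 markers of several cell types rose: 9 of 12 of the oligodendrocyte lineage, 8 of 10 of astrocytes, 6 of 7 tested of Bergmann glia and 8 of 9 of granule neurons. Their part in the Wif1 result was not tested.

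Dkk3, a divergent member of the Dickkopf family, was lower at the middle ages. It gave 1199.7, 1146 and 912 at P1, 804, 382 and 667 at P7, 642, 472 and 552 at P14 and 1059.5, 1058 and 1235 at P28. The P7 and P14 libraries overlapped and lay below all P1 and P28 libraries. The log2 fold change was -0.87 ± 0.25 between P1 and P7 (adjusted p = 0.0496) and 1.02 ± 0.25 between P14 and P28 (adjusted p = 0.0168). The first of these lies next to the threshold. It was lost in edgeR (0.0764), with scaling by library totals (0.0583) or TMM (0.0546), with a pseudocount of 0.1 (0.0553), with no filter (0.0622) and without P1 replicate 1 (0.182), P1 replicate 2 (0.159), P1 replicate 3 (0.0571), P7 replicate 2 (0.235), P7 replicate 3 (0.0937), P14 replicate 1 (0.0616), P14 replicate 2 (0.0610), P14 replicate 3 (0.0659) or P28 replicate 1 (0.0535). The second was lost without P14 replicate 2 (0.0615) or P14 replicate 3 (0.0514). Between P1 and P28 the log2 fold change was 0.048 ± 0.25 (adjusted p = 0.901), and it turned negative with library totals (-0.39), without P1 replicate 3 (-0.073) and without P28 replicate 3 (-0.026).

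Dkk2, an antagonist that binds Lrp6, was low throughout, with 39.4, 15.7 and 11.4 at P1, 7.17, 23.6 and 7.75 at P7, 2.12, 38.1 and 4.34 at P14 and 0, 4.72 and 0 at P28. It fell between P1 and P28 by a log2 fold change of -3.50 ± 1.07 (adjusted p = 0.0205), with the P28 libraries below all P1 libraries. The call was lost in edgeR (0.0706), with a pseudocount of 10 (0.0530) and without P1 replicate 1 (0.0879), P28 replicate 1 (0.0558) or P28 replicate 3 (0.0563), and the value was -4.34 without P28 replicate 2.

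Axin2 encodes a scaffold of the complex that degrades beta-catenin and is itself induced by the signal, so that its RNA is widely used as a readout of the pathway. It gave 507, 675 and 398 at P1, 366, 299.7 and 389.9 at P7, 335, 333 and 277 at P14 and 239.7, 354 and 214 at P28. Means went from 527 ± 139.5 at P1 to 352 ± 46.8, 315 ± 32.9 and 269 ± 74.6. Every P28 library lay below every P1 library, and P7 overlapped P14, as P14 overlapped P28. No single interval passed: the log2 fold changes were -0.56 ± 0.28 (adjusted p = 0.304), -0.16 ± 0.28 (adjusted p = 0.762) and -0.26 ± 0.28 (adjusted p = 0.577). The net log2 fold change was -0.97 ± 0.28 (adjusted p = 0.0150). It lost its call without P1 replicate 2 (0.0724) and in a fit of P1 and P28 alone (0.0682), and the F test over the 4 ages did not pass (adjusted p = 0.0509). Gm11670 overlaps Axin2 on the opposite strand.

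Beyond the 44 genes, 92 further genes of the pathway were counted from 6 lists, and 87 were tested. From P1 to P7, 14 passed (16.1%, against 7.70% of all genes), 5 higher and 9 lower. From P7 to P14, 29 passed (33.3%, against 20.9%), 13 higher and 16 lower. From P14 to P28, 21 passed (24.1%, against 14.4%), 10 higher and 11 lower. Between P1 and P28, 45 passed (51.7%, against 34.6%), 15 higher and 30 lower, with a median log2 fold change of -0.48, against -0.24 over all genes tested. The first of these counts fell from 14 to 8 without P1 replicate 1 or P7 replicate 1, to 9 without P1 replicate 2 and to 6 without P7 replicate 3. The second fell from 29 to 18 without P7 replicate 1, to 17 without P7 replicate 3 and to 19 without P7 replicate 2, P14 replicate 2 or P14 replicate 3.

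**Figure D5:**
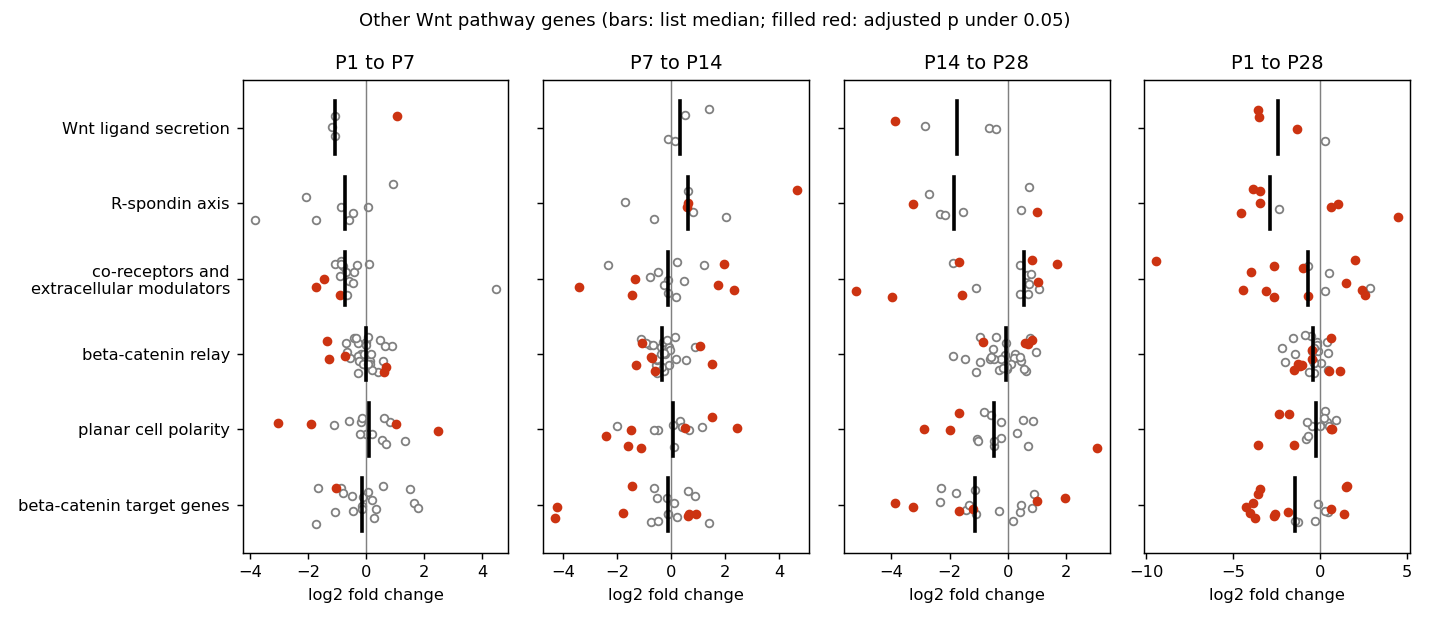
Log2 fold changes of the 87 other tested pathway genes in 6 lists, for the 4 comparisons, with filled red points for an adjusted p under 0.05 and a black bar at the median of a list. A gene can be on more than 1 list, and the axis of each panel has its own range.

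Of 4 tested genes of ligand secretion, 3 passed between P1 and P28, 0 higher and 3 lower, against 34.6% of all genes. Their median log2 fold change was -2.42, against -0.24 over all genes tested. Porcn, the enzyme that attaches the lipid to Wnts, rose from 262 ± 49.6 at P1 to 549 ± 85.1 at P7 (log2 fold change 1.07 ± 0.25, adjusted p = 0.0165). This call was lost without P1 replicate 1 (0.0751), P1 replicate 3 (0.0578), P7 replicate 2 (0.0506) or P7 replicate 3 (0.101). At P28 Porcn was at 321 ± 11.1, and its change from P1 did not pass (log2 fold change 0.31, adjusted p = 0.357). Notum, which removes that lipid outside the cell, had 7.60 to 24.4 normalized counts at P14 and none in any P28 library (adjusted p = 0.0107). Of the R-spondin axis, which raises the number of Frizzled receptors at the surface, 7 of 8 tested genes passed between P1 and P28, 3 higher and 4 lower, against 34.6% of all genes. The median log2 fold change of this list was -2.89, against -0.24 over all genes tested. In the F test 5 of the 8 passed, against 43.8% of all genes. The receptor Lgr6 went from 36.6 to 91.6 at P7 to 1298 to 1827 at P14 (log2 fold change 4.65 ± 0.37, adjusted p = 1.16e-06). Its relative Lgr4 rose from 1201 ± 156 at P14 to 2444 ± 458 at P28 (log2 fold change 1.02 ± 0.19, adjusted p = 0.00422).

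Among other co-receptors and extracellular modulators, 12 of 16 passed between P1 and P28, 4 higher and 8 lower, against 34.6% of all genes. Draxin, an axon guidance protein that also binds Lrp6, fell from 1545 to 3165 at P1 to 1.18 to 5.85 at P28 (log2 fold change -9.42 ± 0.66, adjusted p = 1.30e-07). The glypican Gpc6 rose over the same ages from 1616 ± 737 to 8167 ± 1196 (log2 fold change 2.42 ± 0.25, adjusted p = 4.79e-06). Of the 31 genes that relay the signal inside the cell, 9 passed between P1 and P28, 3 higher and 6 lower, against 34.6% of all genes. Ctnnb1, which encodes beta-catenin, fell in both early intervals and rose in the last, with means of 4455 ± 597, 2663 ± 238, 1759 ± 158 and 3159 ± 199; its adjusted p was 0.00652, 0.010 and 0.00273 in the 3 intervals. The kinase gene Csnk1e fell from 1547 ± 130.3 at P7 to 631 ± 76.6 at P14 (log2 fold change -1.30 ± 0.19, adjusted p = 0.000264).

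Of 16 tested genes of planar cell polarity, 6 passed between P1 and P28, 2 higher and 4 lower, against 34.6% of all genes. Daam2, a formin that binds Dishevelled, dipped at P7, with 2154 to 3330.0 at P1, 511 to 994 at P7 and 3374 to 4535 at P14 (log2 fold changes -1.91 ± 0.23 and 2.43 ± 0.23, adjusted p = 0.000171 and 5.14e-06). Celsr1, a polarity cadherin, went from 1376 to 2492 at P1 to 181 to 263 at P7 (log2 fold change -3.03 ± 0.68, adjusted p = 0.0126). It fell again to 15.2 to 105 at P14 (-2.40 ± 0.68, adjusted p = 0.0206) and rose to 145 to 1063 at P28 (3.08 ± 0.68, adjusted p = 0.00905). The first call was lost without P1 replicate 1 (0.0718) or P7 replicate 3 (0.0529), and the second without P7 replicate 1 (0.0740), P7 replicate 2 (0.0501), P14 replicate 1 (0.0591) or P14 replicate 3 (0.10). The rise was called with every library left out, at 2.25 to 3.77 on the log2 scale, the lowest without P28 replicate 3 and the highest without P14 replicate 2.

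Of 19 genes listed as beta-catenin targets, 13 passed between P1 and P28, 4 higher and 9 lower, against 34.6% of all genes, 14.6% higher and 20.0% lower. Their median log2 fold change was -1.42, against -0.24 over all genes tested. The 2 with the smallest p over the ages rose: the adhesion gene Nrcam went from 4425 ± 745 at P1 to 12610.0 ± 2126 at P28 (log2 fold change 1.51 ± 0.18, adjusted p = 2.17e-05), and Cd44, the hyaluronan receptor, from 412 ± 114 at P14 to 1643 ± 619 at P28 (log2 fold change 1.97 ± 0.28, adjusted p = 0.000762). Myc, Mycn and Ccnd1 on this list are also genes of the cell cycle, and the 10 proliferation markers fell between the same ages.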

How the data were processed

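RNA of GFP-positive cells sorted by FACS was extracted (RNeasy Micro), made into libraries with the Trio RNA-Seq kit and sequenced as paired ends. According to the methods, the authors checked reads with FastQC and MultiQC, aligned them to mm10 with STAR 2.5.0a, counted them over UCSC transcripts with GenomicAlignments and divided them by DESeq2 size factors. The submitters' processing notes name FastQC 0.11.7, MultiQC 1.11 and DESeq2 1.30.1, and the methods name other versions of these 3. The strand setting and the treatment of reads with several matches were not given in the sources used here. The values deposited by the authors are therefore a normalized count signal. They were whole multiples of 1 library-specific step (100.0% of values within 0.01 of a whole number), so read counts were recovered, of 6399499 to 14733985 per library and 1 read worth 0.615 to 1.46 normalized counts. Every same-age pair of libraries differed beyond sampling noise (chi-square per degree of freedom 9.79 to 73.6).

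Of 24421 genes, 15464 reached 10 normalized counts in 3 or more libraries and were tested with limma 3.58.1 (R 4.3.3, trend) on log2(value + 1), in 1 fit of the 12 libraries, with Benjamini-Hochberg adjustment over all genes tested and a threshold of 0.05. Fold changes are on the log2(value + 1) scale, which understates the change of low genes. The scripts were tested on simulated data. RPKM were computed from recovered reads and GENCODE M21 exon lengths, with all 44 symbols matched. The files' mm10 is the same assembly as GRCm38. Promoters came from RefSeq. The table held 27 symbols turned into dates, none of a Wnt gene. The alternatives were edgeR 4.0.16 (quasi-likelihood, TMM) and DESeq2 1.42.0 on recovered reads, scaling by library totals or TMM, pseudocounts of 0.1 and 10, other filters, fits of 2 ages, a replicate block, the study's threshold and each library left out; for the other pathway genes they were chosen after seeing the data.

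The members and the lists were chosen with earlier results of these data known. Named with values were the 3 rising and 3 falling members with the largest called change in each comparison, the 6 with the highest RPKM, Axin2, Wif1, Lrp5, Lrp6, Ror1, Ror2 and Ryk, and the 2 genes of each pathway list with the smallest F test p; Wnt3, Wnt4, Fzd5, Fzd6, Fzd7, Sfrp4, Dkk2, the neighbouring ligand genes and the 4 printed start regions were added after their values were seen.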

Additional observations from a re-analysis of the deposited data

How the results depend on the processing

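Alternatives were counted for 40 pairs of a member and a comparison. These were all pairwise calls, and between P1 and P28 also the 6 genes with the highest RPKM and the 7 named singly in the choice of members. Of their values under alternatives, 826 kept direction and side of the threshold, 76 lost the call, 3 gained it and 6 changed sign. Other changes given with a value above, such as that of Wnt4, are not in this count. Several of these alternatives leave the log2 fold change itself as it was, so that only the call could change. They are a left-out library of an age not compared, a fit of 2 ages alone, the replicate block and the study's threshold. The number of members called from P1 to P7, 5, became 11 in a fit of those 2 ages alone, 8 with the study's threshold and 2 to 6 with a library left out. The paper states that threshold as a fold change over 0.75 at p under 0.05. It was read here as an unadjusted limma p under 0.05 with a change over 0.75 on the log2 scale. The 6 from P7 to P14 became 10 with the study's threshold and 5 to 7 with a library left out. The 8 from P14 to P28 became 5 where a gene needed 10 reads in each library to be tested (23 members), 4 with 2 ages alone, 13 with the study's threshold and 5 to 10 with a library left out. The study's threshold passed 14.2%, 26.2% and 24.1% of all genes in these intervals. The filter of 10 reads in each library gave 10 calls from P1 to P28 in place of 15, since Dkk2, Fzd2, Fzd10, Ror1, Sfrp5 and Wnt8b were not tested under it and Wnt4 was gained. The 15 from P1 to P28 became 11 to 16, and the 18 of the F test 15 to 20, with a library left out. Of the other pathway genes, the 14 from P1 to P7 became 37 with 2 ages alone, 23 with the study's threshold and 6 to 16 with a library left out; the 21 from P14 to P28 became 9 with 2 ages alone and 14 to 27 with a library left out; left-out ranges were 17 to 32 from P7 to P14, 35 to 48 from P1 to P28 and 45 to 62 for the F test. The cause of these moves was not tested. Of all genes, 1191 were called from P1 to P7 and 2820 with 2 ages alone, and 2232 from P14 to P28 and 766 with 2 ages alone.

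Scaling by library totals moved the all-gene median on the log2 scale from -0.24 to -0.66 between P1 and P28, from -0.086 to -0.34 between P7 and P14, and from -0.12 to -0.35 between P14 and P28. Between P1 and P28 it changed 2264 higher and 3086 lower genes to 1368 and 5132, and the members from 2 higher and 13 lower to 2 and 17. Under it Dkk3 and Lrp6 turned from 0.048 and 0.20 to -0.39 and -0.24 between P1 and P28, where neither was called. Other values that changed sign between these ages were uncalled too: with a library left out, Dkk3 ranged from -0.073 (P1 replicate 3) to 0.12 and was -0.026 without P28 replicate 3, Lrp5 ranged from -0.0019 (P28 replicate 3) to 0.91, and Ror2 from -1.16 to 0.48 (P28 replicate 2).

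Replicate numbers do not show that libraries of different ages were paired: deviations of same-numbered libraries correlated at -0.029 to 0.139 (median 0.0313), others at -0.105 to 0.0536, and 9 of 12 libraries had their best match at their own number, a hint from the data and not from the design. With a replicate block the counts of members called were 5, 6, 8, 15 and 18 in the order above, with Sfrp4 lost (adjusted p = 0.0648) and Dkk2 gained in the F test. Depth limits the low genes: 3 reads are worth 1.85 to 4.38 normalized counts.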
